A study of Mus musculus with 12 samples.

Results

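The comparison described here is repeated ultraviolet B (UVB) exposure against no exposure in the skin of mice with wild-type Foxp3. It takes the 6 libraries whose genotype label is Foxp3-WT, out of 12 in the series: 3 labelled as irradiated and 3 labelled Untreated. RNA came from whole skin and was measured by bulk RNA sequencing. The irradiated mice received 6 doses on a shaved area of the back flank. Each dose was 200 mJ/cm2 by the treatment label but 100 mJ/cm2 by the protocol, a conflict not settled here. Untreated RNA came from a skin site that was not irradiated, and the labels do not say whether it was shaved. The other 6 libraries, 3 irradiated and 3 untreated, carry the altered Foxp3 that the labels write Foxp3-E2 and the protocol Foxp3-DE2, called DE2 below. The labels name no strain, age or sex and tie no library to an animal. P-values therefore measure only the spread between these libraries, which may be in part technical. Foxp3 itself, the lineage factor of regulatory T cells, had 0 counts in all 6 Foxp3-WT libraries, which allows up to 0.219 CPM (TMM-scaled counts relative to library size) over the untreated and 0.273 CPM over the irradiated group, for counting error only.

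UVB is absorbed mainly in the epidermis, the outer layer of skin, where it damages DNA in keratinocytes. Keratinocytes divide in the basal layer and, as they move outward, switch keratins and build the cornified envelope, a crosslinked protein shell sealed with lipid. Skin that is injured or inflamed is known for a replacement set of keratins, for small proline-rich proteins and for attractants of neutrophils. DNA damage is known to act through p53 and its targets, and damaged or infected cells can also switch on interferon-stimulated genes.

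Total counts were 3852586 to 4392982 in the untreated and 2915273 to 4212640 in the irradiated Foxp3-WT libraries. Epidermal markers were abundant, with Krt14, the keratin of basal cells, at 1742 to 2718 CPM in the 6 libraries. Skeletal muscle genes took 4.18% to 5.20% of counts in untreated libraries, and 3.90%, 7.93% and 1.95% in irradiated replicates 1, 2 and 3. The libraries of the irradiated group resembled each other less than the untreated ones did. Pearson's r of log2 CPM across 15126 genes, which are not independent replicates, was 0.870 to 0.892 among irradiated pairs. It was 0.913 to 0.930 among untreated pairs and 0.888 to 0.911 between the groups. In a principal component analysis of all 12 libraries, the untreated DE2 group stood alone, at 101.8 to 134.6 on the leading axis against -73.7 to -11.0 for the other 9. Those 3 libraries enter every comparison with DE2 below. In bulk RNA, fewer cells of a type and less RNA per cell cannot be told apart.

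Klk6, Flg and Rbp2 rose in irradiated Foxp3-WT skin, and no gene passed the test in the other direction. These were the 3 genes of 15126 tested, 0.0198%, that passed an adjusted p of 0.05 in the quasi-likelihood test of edgeR (Benjamini-Hochberg). At an unadjusted p under 0.05 there were 689 genes, 4.555% of those tested, with 365 higher and 324 lower. That share is no larger than a threshold of 0.05 passes where nothing differs. DESeq2 called 22 genes and limma voom 3 in the same comparison. The 3 irradiated libraries lay wholly above the 3 untreated ones for 734 genes (4.85%) and wholly below for 794 (5.25%). Shares of this size also arise by chance between 3 and 3 libraries that do not differ. Over all genes the median log2 fold change was 0.03.

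Klk6 (ENSMUSG00000050063, chromosome 7, 43824499 to 43832030, plus strand, GRCm38) encodes kallikrein 6, a secreted serine protease of skin. It was at 33.1, 44.5 and 78.4 CPM in untreated libraries and at 446, 343 and 164 CPM in irradiated ones. Every irradiated library lay above every untreated one, although the values spread widely within each group. The log2 fold change was 2.61 ± 0.365 (SE), with an adjusted p of 0.0261 in edgeR. Flg (ENSMUSG00000102439, chromosome 3, 93273523 to 93293686, plus strand) encodes filaggrin, which bundles keratin in the cornified layer and is broken down into the skin's natural moisturising factor. It was at 224, 135 and 224 CPM without UVB and at 900, 858 and 511 CPM with it. The groups did not overlap, and the log2 fold change was 1.96 ± 0.280 (edgeR adjusted p = 0.0261). Rbp2 (ENSMUSG00000032454, chromosome 9, 98486115 to 98509781, plus strand) encodes a cytoplasmic retinol-binding protein. Its level was low, at 6.97, 4.66 and 6.04 CPM in untreated and 31.8, 19.7 and 23.7 CPM in irradiated libraries, again with no overlap. The log2 fold change was 2.08 ± 0.301 (edgeR adjusted p = 0.0261).

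These calls depended on single libraries. The log2 fold changes stayed positive as each Foxp3-WT library was left out. They ran from 2.28 to 3.015 for Klk6, from 1.74 to 2.16 for Flg and from 1.87 to 2.23 for Rbp2. No gene passed without untreated replicate 1, untreated replicate 2 or irradiated replicate 1, and 1 passed without untreated replicate 3 (Klk6). There were 6 calls without irradiated replicate 2 and 8 without irradiated replicate 3, and both sets held Klk6, Flg and Rbp2. Without the 3 untreated DE2 libraries, a setting chosen after seeing the data, 12 genes passed, all higher, among them Klk6, Flg, Rbp2, Krt6a, S100a9 and Sprr2a3. A fit of the 6 Foxp3-WT libraries alone called no gene, and the fit of all libraries with no filter on low counts called 141.

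The next genes by p were just outside the threshold, and were chosen for mention after their values were seen. The uncharacterised gene 2610528A11Rik had a log2 fold change of 2.40 (edgeR adjusted p = 0.0627), and Glrx, which encodes glutaredoxin, had 1.70 (0.0670). The stefin gene Stfa3 had 3.20 (0.0796) and the small proline-rich gene Sprr2a3 had 3.25 (0.0877).

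**Figure D1:**
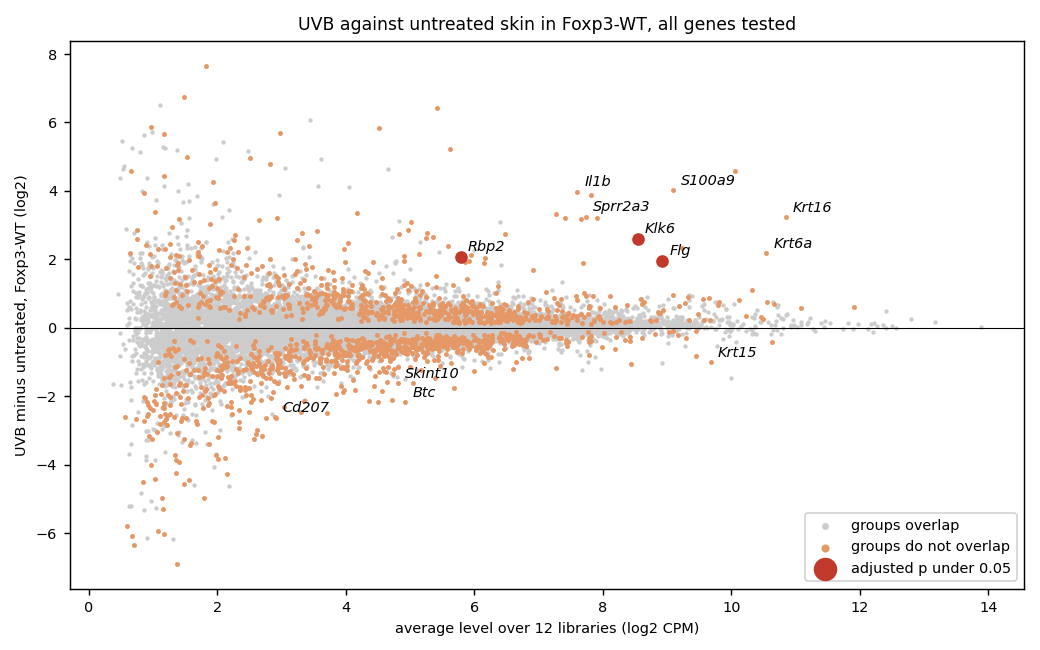
Average level over the 12 libraries (x axis, log2 CPM) against the UVB minus untreated difference in Foxp3-WT skin (y axis, log2) for 15126 genes, with genes whose groups do not overlap in orange and the 3 called genes as large red points. Klk6, Flg and Rbp2 lie at 2.61, 1.96 and 2.08.

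Sequence before a RefSeq start of each called gene is shown because the comparison rests on these genes. The windows are the 250 bases upstream of that start on GRCm38.p6, written 5′ to 3′ on the gene's strand. Klk6 has more than 1 start in RefSeq, and the one nearest the GENCODE gene start was taken. RefSeq and GENCODE starts differ: the Rbp2 window lies wholly inside the GENCODE gene, which begins at 98486115, and the ends of the Klk6 and Flg windows run past the GENCODE start. Capitals mark matches, on either strand, to TGANTCA, called an AP-1 match here, and to TATAAA, the TATA box. In TGANTCA the centre N is any base. It is a looser pattern than the letters bound by AP-1 (a Jun and Fos factor that responds to stress), which have C or G there.
Klk6 (chr7:43824294-43824543, plus strand): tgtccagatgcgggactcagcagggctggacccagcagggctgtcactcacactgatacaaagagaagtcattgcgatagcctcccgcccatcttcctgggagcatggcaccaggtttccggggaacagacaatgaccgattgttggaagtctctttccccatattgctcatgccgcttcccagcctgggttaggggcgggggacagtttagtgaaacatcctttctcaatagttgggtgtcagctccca
Flg (chr3:93273296-93273545, plus strand): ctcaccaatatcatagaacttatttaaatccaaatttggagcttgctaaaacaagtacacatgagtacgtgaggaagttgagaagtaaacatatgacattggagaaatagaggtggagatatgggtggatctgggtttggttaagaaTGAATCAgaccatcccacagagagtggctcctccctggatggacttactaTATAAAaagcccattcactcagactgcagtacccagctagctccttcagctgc
Rbp2 (chr9:98490287-98490536, plus strand): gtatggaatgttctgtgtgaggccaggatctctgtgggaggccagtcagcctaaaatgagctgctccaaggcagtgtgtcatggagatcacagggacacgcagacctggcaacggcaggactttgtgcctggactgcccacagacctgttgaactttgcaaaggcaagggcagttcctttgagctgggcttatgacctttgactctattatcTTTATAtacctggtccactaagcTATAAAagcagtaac
The Flg window held 1 AP-1 match, whose first base was 103 bases before the start, and 1 TATA match. That AP-1 match, TGAATCA, has A at the centre, so it fits the looser pattern only. The Rbp2 window held 2 TATA matches and the Klk6 window held none of either. Of all 32851 RefSeq promoter windows of this length, 6.75% held an AP-1 match and 12.4% a TATA match. A match describes letters only, and binding was not measured.

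The stress keratins and small proline-rich proteins, made by injured or hyperproliferative epidermis, had 24 listed genes, of which 21 were tested. None passed the test. For 9 of them (42.9%) all 3 irradiated libraries lay above the untreated ones and for 0 below, beside 4.85% and 5.25% of all genes. The median log2 fold change of the list was 2.51, or 2.18 when genes absent from one group take their bound. Krt16 and Krt6a encode partner keratins of wounded epidermis. Krt16 was at 30.0, 50.1 and 143 CPM in untreated and 1054, 567 and 468 CPM in irradiated libraries. Krt6a was at 90.6, 158 and 145 CPM against 785, 601 and 396 CPM. Both lay well apart between the groups, yet the adjusted p was 0.264 for each in edgeR, with log2 fold changes of 3.23 ± 0.659 and 2.18 ± 0.442. Limma voom called Krt16, and DESeq2 called Krt16 and Krt6a. Sprr2a3 was at 6.75, 3.03 and 8.55 CPM against 49.9, 91.5 and 34.1 CPM. Reads of the Sprr2 genes may be split among near-identical copies, so single members are uncertain. An AP-1 match, by the looser pattern TGANTCA, was present in the windows of 10 of the 19 list members with a RefSeq window, 52.6%. It was present in 6.75% of all windows. For cornified envelope genes it was 5 of 31 (16.1%), and for kallikreins and their inhibitors 0 of 13. Lists take a single window per gene, whereas all windows include every start of a gene, so the shares are not strictly alike. Matches in near-identical copies are not independent.

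Cornified envelope genes differed less between the groups. Of 32 tested, Flg was called, 10 (31.2%) lay wholly above and 0 wholly below, beside 4.85% and 5.25% of all genes, and the median log2 fold change was 0.67. Late envelope genes were among the separated ones: Lce3c had 2.04, Lce1g 1.92 and Rptn, encoding repetin, 3.18, none of them called (edgeR adjusted p = 0.231, 0.264 and 0.628). Lor, encoding loricrin, the most abundant envelope protein, overlapped between the groups at -0.08. In the list, 27 log2 fold changes were positive and 5 negative, down to -1.01. The fit with no filter on low counts called Lce3c, Lce1g and Rptn higher, but Lce1m and Flg2 lower, at -1.01 and -0.99. Lce genes are also a family of close copies. Among the kallikreins and their inhibitors, which control how dead cells are shed, 5 of 17 tested (29.4%) lay wholly above, beside 4.85% of all genes, and 0 below, with a median of 0.47. Klk6 was called, and Klk13 and Klk10 had log2 fold changes of 2.14 and 1.03 (adjusted p = 0.552 and 0.701 in edgeR).

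**Figure D2:**
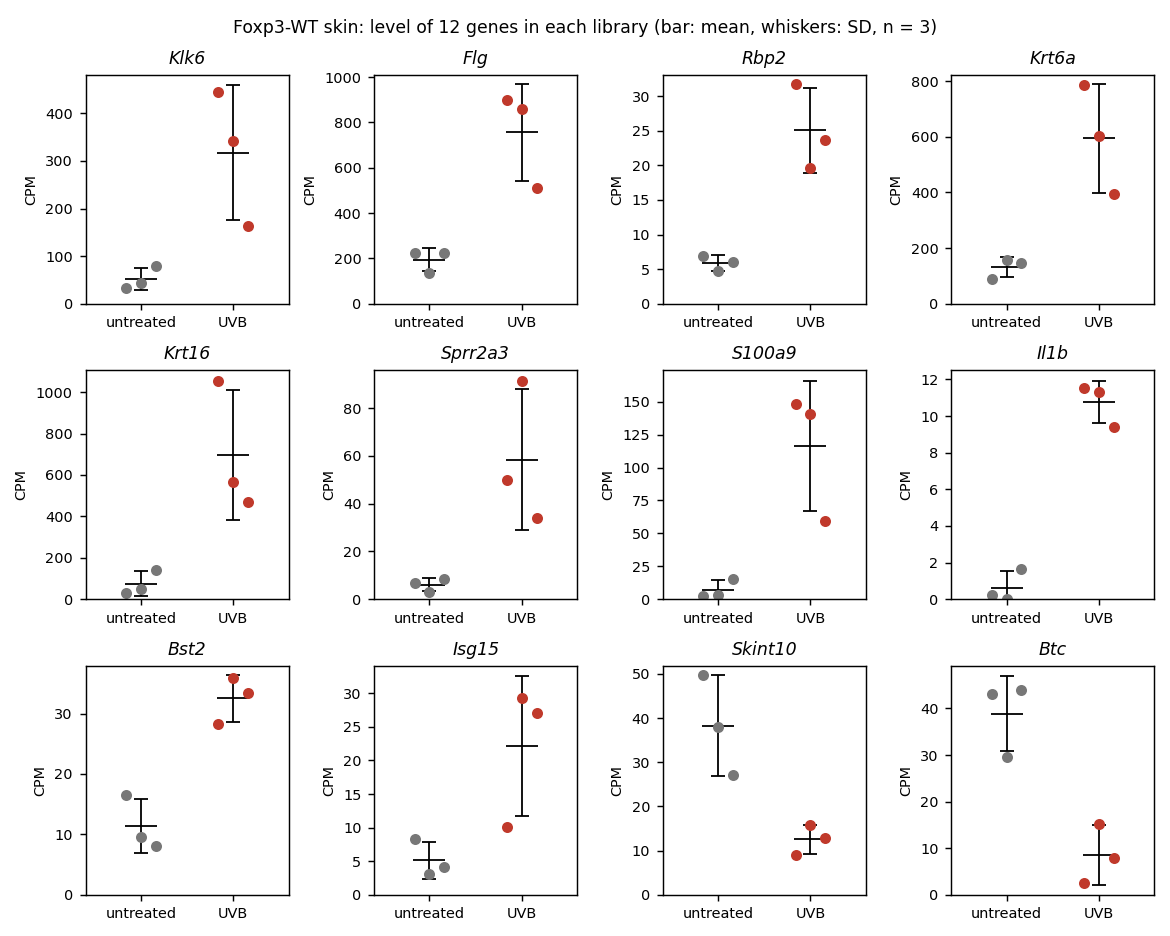
CPM (y axis, linear from 0) of 12 genes in the 3 untreated (grey) and 3 irradiated (red) Foxp3-WT libraries, with mean and SD (n = 3). Irradiated libraries lie above untreated ones for 10 genes, such as Klk6, and below them for Skint10 and Btc.

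No basal or suprabasal epidermal gene passed the test. Of 21 tested, 6 (28.6%) lay wholly below the untreated libraries, beside 5.25% of all genes, and 2 (9.52%) wholly above, beside 4.85%. The median was -0.16, and the list holds genes of both layers. Col17a1, a collagen of the anchoring hemidesmosome, was at 407, 240 and 329 CPM in untreated and 142, 160 and 167 CPM in irradiated libraries (-1.05 ± 0.269, edgeR adjusted p = 0.553). Dst, the hemidesmosome linker, was at -0.61, and Krt15, a keratin of follicle stem cells and resting basal cells, at -0.996. Krt14 itself was at 0.00 ± 0.296 and Krt10, of the suprabasal layers, at -0.25. Krt1, its partner, lay wholly above at 1.12.

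Skint genes, immunoglobulin-like genes of the epidermis of which Skint1 selects dendritic epidermal T cells, were lower throughout in sign. All 11 tested had a negative log2 fold change, 4 (36.4%) lay wholly below, beside 5.25% of all genes, and 0 above, and the median was -0.93. None was called. Skint10 was at 49.9, 38.0 and 27.1 CPM without UVB and 9.04, 15.7 and 12.8 CPM with it. Its log2 fold change was -1.61 ± 0.385 (edgeR adjusted p = 0.468). Skint5 followed at -1.70 ± 0.531 (0.792). Btc, encoding the growth factor betacellulin, which binds the EGF receptor, was at 43.1, 29.6 and 44.0 CPM against 2.47, 15.2 and 7.91 CPM. Its change of -2.17 ± 0.456 missed the threshold in edgeR (adjusted p = 0.264), and DESeq2 called it. Tgfa, another EGF receptor ligand, lay on the other side, at 0.93 (edgeR adjusted p = 0.790).

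**Figure D3:**
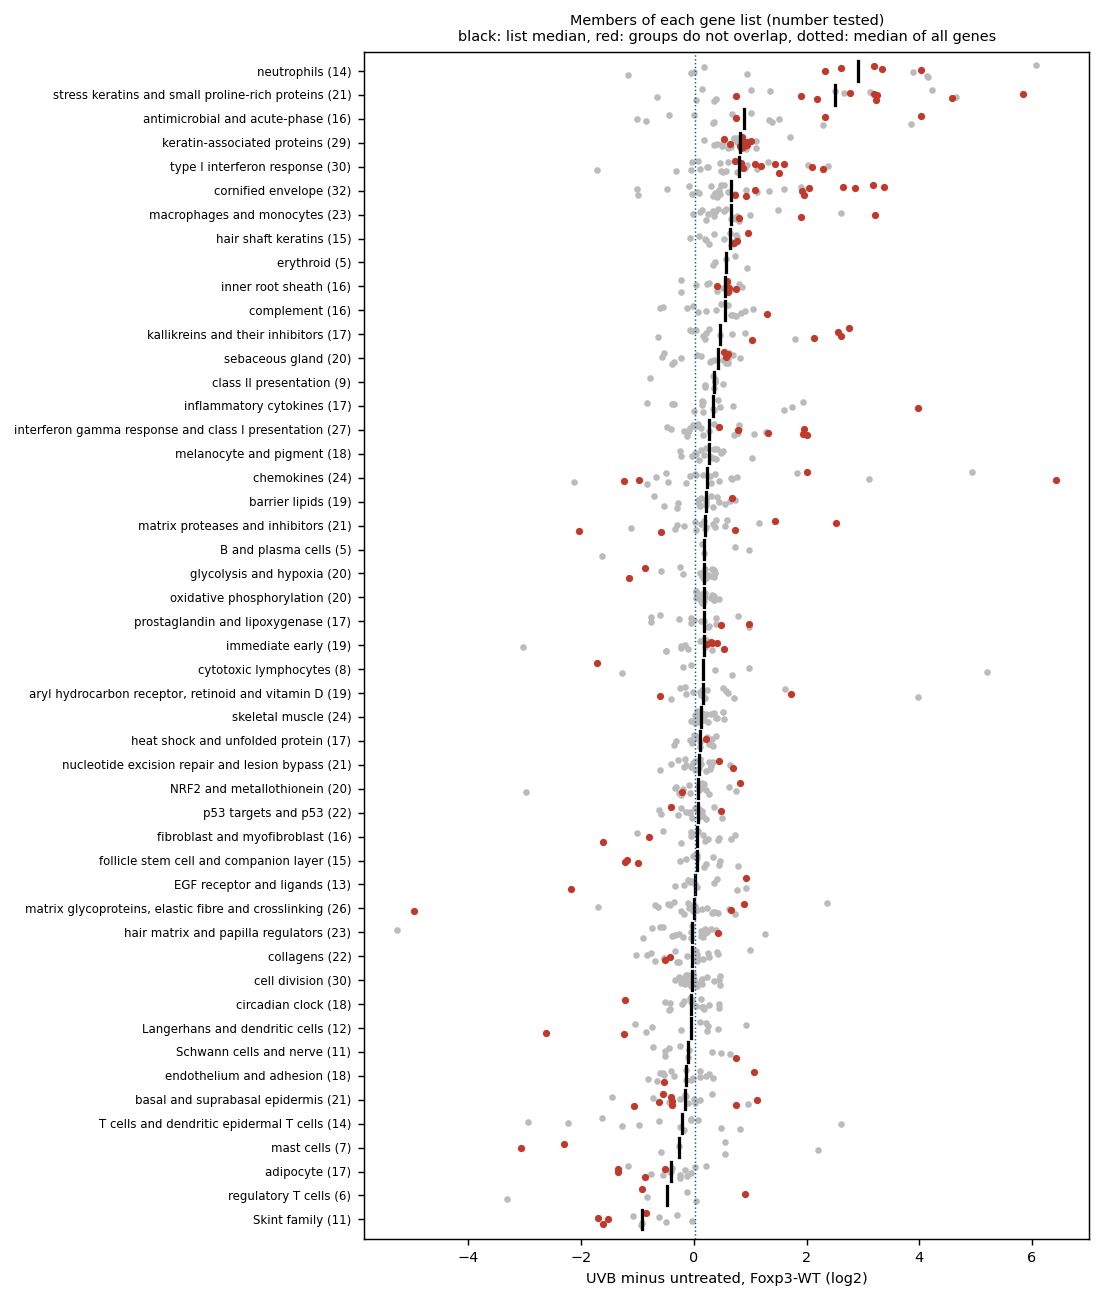
UVB minus untreated log2 difference in Foxp3-WT skin (x axis) of every tested member of the 49 gene lists (rows, number tested in brackets), with the list median as a black bar and genes whose groups do not overlap in red. Neutrophil and stress keratin lists have medians of 2.91 and 2.51, and the Skint list has -0.93.

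Neutrophil genes had the highest median of the 49 lists, 2.91, or 1.31 with genes at 0 set at their bound, which is below the 2.18 of the stress keratin list. Of 22 listed, 14 were tested, 5 of these (35.7%) lay wholly above, beside 4.85% of all genes, and none passed. The members with the smallest p were the stefin gene Stfa3, at 3.20 (edgeR adjusted p = 0.0796), and S100a9. S100a9 and S100a8 encode the subunits of calprotectin, a protein of neutrophils that keratinocytes also make under stress. S100a9 was at 2.61, 3.03 and 15.4 CPM in untreated and 148, 141 and 59.3 CPM in irradiated libraries. Its log2 fold change was 4.03 ± 0.872 (edgeR adjusted p = 0.366). Ly6g, the defining neutrophil marker, had 0 counts in all 6 libraries, Cxcr2 was at 0.00 to 5.17 CPM and Csf3r at 0.00 to 8.27 CPM, with overlapping groups. The neutrophil markers S100a8, S100a9, Ly6g, Cxcr2 and Csf3r summed to 32.2 to 54.2 CPM without UVB and 182 to 379 CPM with it. Most of the irradiated sum was S100a8 and S100a9, and the part of neutrophils in these values was not tested.

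Inflammatory signals were present at low level. Il1b, encoding interleukin 1 beta, was at 0.218, 0.00 and 1.67 CPM in untreated libraries. In irradiated libraries it was at 11.5, 11.3 and 9.43 CPM, so the groups were far apart on few counts. The log2 fold change was 3.98 ± 0.995 (edgeR adjusted p = 0.553). Of 17 tested cytokine genes 1 (5.88%), Il1b, lay wholly above, a share near the 4.85% of all genes, and 0 lay below. Ccl3, a chemokine gene, had 0 counts in untreated libraries and 18, 3 and 9 in irradiated ones. It was at least 12.4-fold higher with UVB, by a floor of 3 counts over the group, but was not called (edgeR adjusted p = 0.738). Of 24 tested chemokine genes, 2 (8.33%) lay wholly above and 2 (8.33%) wholly below, beside 4.85% and 5.25% of all genes. Tnf and Ptgs2, the cyclooxygenase gene, overlapped at 0.14 ± 1.27 and 0.79 ± 1.06. Cxcl1 was below the filter. Among 23 tested macrophage and monocyte genes 3 (13.0%) lay wholly above, beside 4.85% of all genes, including Fcgr1, a receptor for antibody, at 3.22 ± 0.669 (edgeR adjusted p = 0.264), and Cd14, a sensor of bacterial products, at 1.90 ± 0.509 (0.653). The macrophage markers Cd68, Adgre1, Csf1r, Mrc1 and C1qa summed to 69.2 to 179 CPM and 114 to 249.3 CPM, overlapping between groups.

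In the type I interferon list 10 of 30 tested genes (33.3%) lay wholly above and 0 below, beside 4.85% and 5.25% of all genes. The median was 0.80, and no member was called. Bst2, which tethers virus particles, was at 16.5, 9.55 and 8.13 CPM in untreated and 28.2, 35.9 and 33.4 CPM in irradiated libraries. Isg15, a ubiquitin-like protein gene, was at 8.27, 3.03 and 4.17 CPM against 10.1, 29.3 and 27.1 CPM, with irradiated replicate 1 only just above the untreated libraries. Log2 fold changes were 1.51 ± 0.310 and 2.09 ± 0.493 (edgeR adjusted p = 0.264 and 0.468), and DESeq2 called both. The interferon gamma and class I list had 6 of 27 (22.2%) above and 0 below, with a median of 0.27. The upstream windows of Bst2 and Isg15 are shown as the 2 members with the smallest p, with capitals marking GAAANNGAA, the letters of an interferon response element, on either strand.
Isg15 (chr4:156200819-156201068, minus strand): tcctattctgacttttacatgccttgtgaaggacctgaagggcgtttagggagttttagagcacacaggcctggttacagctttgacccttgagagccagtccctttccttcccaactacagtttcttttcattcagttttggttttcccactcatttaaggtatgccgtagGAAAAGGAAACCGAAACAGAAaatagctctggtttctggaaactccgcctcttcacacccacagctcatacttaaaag
Bst2 (chr8:71537473-71537722, minus strand): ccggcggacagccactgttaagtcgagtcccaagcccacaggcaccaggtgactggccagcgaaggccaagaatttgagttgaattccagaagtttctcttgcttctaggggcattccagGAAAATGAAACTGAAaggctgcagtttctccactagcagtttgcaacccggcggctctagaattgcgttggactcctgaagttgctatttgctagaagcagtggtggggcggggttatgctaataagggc
Isg15 held 3 overlapping matches, with first bases 78, 72 and 66 bases before the start, and Bst2 held 2, at 130 and 124. Such a match was found in 11 of 21 type I list members with a window, 52.4%, and in 7.13% of all windows. In the interferon gamma and class I list it was found in 12 of 21, 57.1%. The lists take a single window per gene, whereas all windows include every start of a gene.

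The DNA damage genes showed little difference. Of 22 tested p53 genes 1 (4.55%) lay wholly above and 1 wholly below, near the 4.85% and 5.25% of all genes, with a median of 0.08. Trp53, which encodes p53, was at 0.03 ± 0.209, Cdkn1a, the p21 cell cycle inhibitor gene, at 0.14 ± 0.190, and Mdm2, the p53 ubiquitin ligase gene, at -0.08 ± 0.271. Nucleotide excision repair, which removes UVB lesions, had 2 of 21 (9.52%) above and 0 below, and a median of 0.09. Cell division genes had 0 of 30 on either side and a median of -0.04, with the proliferation marker Mki67 at 165, 136 and 128 CPM against 125, 68.1 and 191 CPM. Small changes were not detectable here: the SE of these 4 genes ran from 0.190 to 0.411.

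No gene of the growing hair passed the test. All 29 tested keratin-associated genes, which crosslink hair keratins, had positive log2 fold changes, and 12 (41.4%) lay wholly above, beside 4.85% of all genes, with a median of 0.82. Hair shaft keratins had 3 of 15 (20.0%) above with a median of 0.64, and inner root sheath genes 6 of 16 (37.5%) with a median of 0.55, with 0 below in each. Their share of counts varied between libraries: hair shaft keratins took 0.951% to 1.42% without UVB and 1.19% to 2.23% with it. Pigment genes overlapped, with Dct and Tyr at 0.09 and 0.36. Adipocyte genes had 4 of 17 (23.5%) wholly below, beside 5.25% of all genes, and 0 above (median -0.40), while skeletal muscle genes had 0 of 24 on either side (median 0.12). Langerhans cell marker Cd207 was at 11.8, 4.19 and 8.34 CPM against 3.29, 0.00 and 0.608 CPM (-2.62 ± 0.885, edgeR adjusted p = 0.852), while Epcam, also on the Langerhans marker list and shared with other epithelium, overlapped. Col1a1, the main collagen of dermis, was at 0.10 ± 0.393.

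The same contrast in DE2 skin called 4202 genes (27.8%), 2180 higher and 2022 lower. Klk6, Flg and Rbp2 were higher there too, by 6.15, 2.79 and 4.53 on the log2 scale. The difference between the genotypes' changes passed the test for 1585 genes (10.5%), with the change in Foxp3-WT above that in DE2 for 732 and below for 853. Klk6 and Rbp2 were among these: their changes in Foxp3-WT were smaller by 3.54 ± 0.512 and 2.46 ± 0.418 (edgeR adjusted p = 0.000578 and 0.00202). Flg was not, at -0.83 (adjusted p = 0.182). Krt6a had 131 ± 35.8 CPM untreated and 594 ± 195 CPM irradiated in Foxp3-WT, against 84.0 ± 61.7 and 5166 ± 843 CPM in DE2 (SD, n = 3). Its change was smaller in Foxp3-WT by 3.77 ± 0.620 (adjusted p = 0.00160). A smaller change in Foxp3-WT passed the test for 11 of 21 stress keratin genes, for 21 of 30 cell division genes, and for all 29 keratin-associated and 15 hair shaft genes. The test called 0 of 30 type I interferon genes in either direction, which does not show that they changed alike. Their medians were 0.80 in Foxp3-WT and 1.12 in DE2, with differences of -0.37 for Bst2 and -0.69 for Isg15 (edgeR adjusted p = 0.64 and 0.57).

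For hair, pigment and cell division genes the level of the untreated DE2 libraries moves with this result. Krt73, a root sheath keratin, was at 966 ± 316 CPM in untreated and 1280 ± 82.4 in irradiated Foxp3-WT, at 14.1 ± 7.82 in untreated and 595 ± 86.1 CPM in irradiated DE2. Tyr, the pigment enzyme, had 0 counts in untreated DE2. Muscle genes took 8.24% to 15.0% of counts in those 3 libraries, against 1.95% to 7.93% in the 6 Foxp3-WT libraries. Inner root sheath genes took 0.0357% to 0.131% of counts in the untreated DE2 libraries and at least 0.982% in each of the other 9 libraries. The count of genes called for the difference was 1 with a term for the mean log2 CPM of inner root sheath genes. It was 329 with a like term for muscle genes. The untreated DE2 libraries lay far apart in inner root sheath share. Their muscle shares were the highest, but the lowest of them, 8.24%, was close to the 7.93% of irradiated Foxp3-WT replicate 2. Tissue makeup and that group therefore cannot be told apart. Slc2a1, the glucose transporter gene, had differences of opposite sign in the genotypes. It was at 49.6, 49.6 and 52.1 CPM against 27.9, 27.1 and 27.7 CPM in Foxp3-WT (-0.87 ± 0.244, edgeR adjusted p = 0.701), where it did not pass, and changed by 2.13 in DE2. The difference was -3.0 ± 0.342 (edgeR adjusted p = 8.73e-05).

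**Figure D4:**
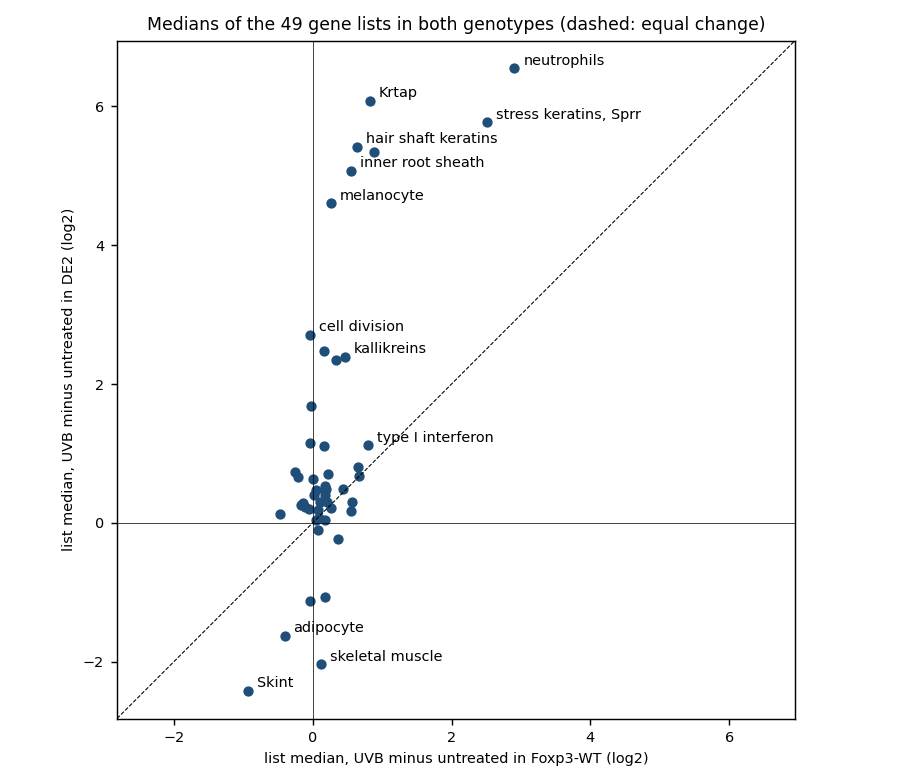
Median log2 difference, UVB minus untreated, of each of the 49 gene lists in Foxp3-WT (x axis) and DE2 (y axis), with a dashed line of equal change. The hair shaft, keratin-associated, inner root sheath, pigment and cell division lists lie far above the line, as do the stress keratin and neutrophil lists. The type I interferon list, at 0.80 and 1.12, lies near it. Other lists do too, such as the cornified envelope list, at 0.67 and 0.67, and the follicle stem cell list, at 0.05 and 0.04.

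**Figure D5:**
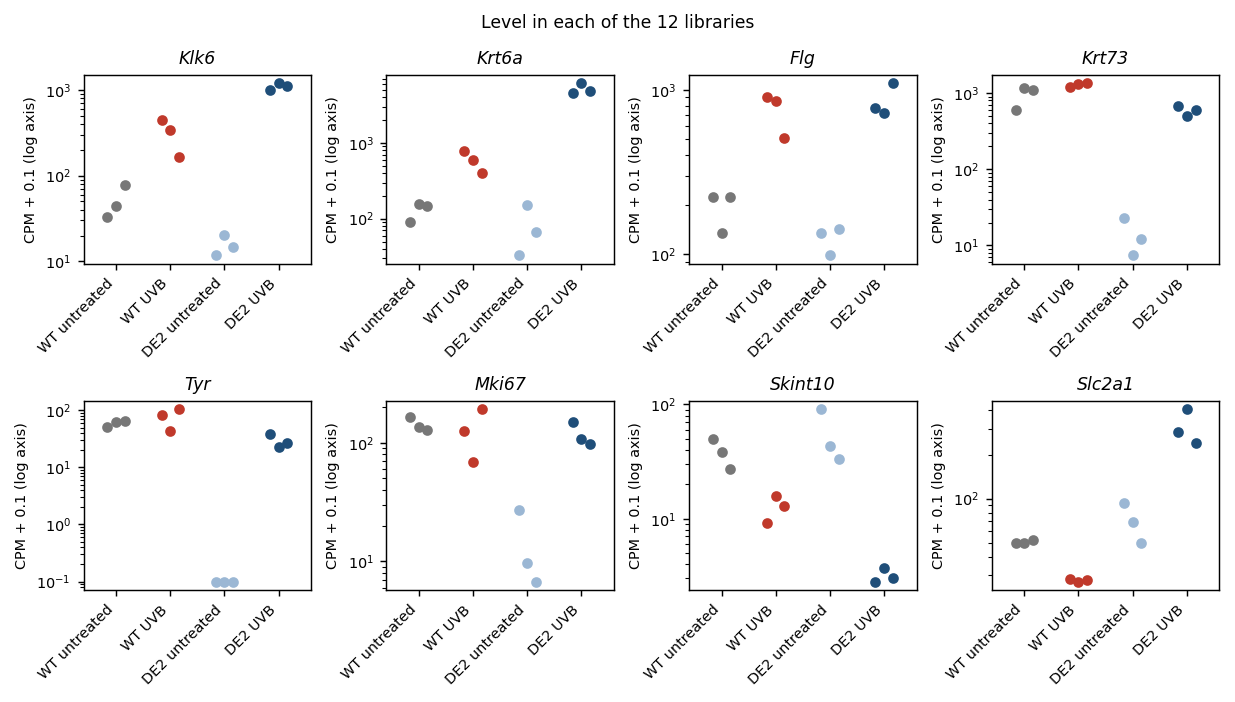
CPM plus 0.1 (y axis, log scale) of 8 genes in the 3 libraries of each of the 4 groups. Krt73 and Tyr are low in untreated DE2 libraries alone, and Slc2a1 is lower with UVB in Foxp3-WT and higher in DE2.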

How the data were processed

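Skin RNA was counted in 12 libraries. The deposited values are unnormalized counts for each Ensembl gene. The submitters' processing notes name HTSeq 2.0.2, SAMtools 1.16, Picard 3.1.0 and Trimmomatic 0.39, and the build GRCm38. No aligner, annotation release or strand setting is given in the sources used here, so overlapping genes on opposite strands cannot be told apart. Gene symbols came from the GENCODE annotation of that build, which named 53360 of 53465 identifiers.

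Counts were fitted in R 4.3.3 with edgeR 4.0.16 (quasi-likelihood, robust) over all 12 libraries with 1 mean per group, TMM scaling and edgeR's low-count filter, which left 15126 genes and 8 residual degrees of freedom. P-values were adjusted by Benjamini-Hochberg, with a threshold of 0.05. Standard errors were worked back from the F statistic, and CPM used TMM library sizes. The fit was tested on simulated data, with 50 genes changed at each size. For the Foxp3-WT contrast it recovered 0% of 1.5-fold, 16% of 2-fold, 60% of 4-fold and 76% of 8-fold changes. There were 6 false calls in that contrast. Alternatives used DESeq2 1.42.0, limma 3.58.1, other scalings, filters and covariates, and each library left out.

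The members and the 49 gene lists were chosen with earlier results of these data known, and no list was tested as a set. Named genes were the called genes, up to 4 called members of each list or its 2 members with the smallest p, a fixed set of 24 skin genes, and the 6 most positive and 6 most negative interaction genes. Genes outside the rule, given as list examples or markers, were chosen after their values were seen. A single gene within the rule is not reported here. With 3 against 3 libraries no permutation test of a single value can reach the threshold, so none was made. No paired analysis was possible because the labels carry no replicate numbers or animal ties. The replicate numbers used here follow the order of the samples within each group and link no libraries across groups.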

Additional observations from a re-analysis of the deposited data

Results flagged for a closer look

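Each gene below had a UVB change in Foxp3-WT skin that differed from its change in DE2 skin, at an adjusted p under 0.05 in edgeR's interaction test. Values are the Foxp3-WT log2 change minus the DE2 one, and all draw on the 3 untreated DE2 libraries that lay apart.

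Among the epidermal and keratinocyte genes the difference was Alox8 at -4.49, Krt6a at -3.77, Klk6 at -3.54, Krt16 at -2.92, Rbp2 at -2.46, Crabp2 at -2.45, Krt14 at -1.96, Dst at 1.10, Lor at 1.92 and Krt15 at 2.40. Stfa3, of the neutrophil list, was at -2.57. Among the hair follicle genes the difference was Lef1 at -5.26, Krt86 at -5.10, Krt73 at -4.98, Tchhl1 at -4.87, Krt83 at -4.72, Krtap4-7 at -4.70 and Krtap3-2 at -2.53. Among the pigment cell genes the difference was Pmel at -5.58 and Dct at -4.61. Among the immune and stromal genes the difference was Mmp13 at -5.82, Cd14 at -2.97, Il33 at -2.09, Skint10 at 2.54, Iigp1 at 3.18 and Skint5 at 4.43. Among the remaining genes the difference was Mki67 at -3.17, Slc2a1 at -3.0, Ndufv1 at 1.34, Ndufa9 at 1.41 and Tnni3k at 6.81.

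The other genes had a group with few or no counts, so the fitted difference depends on the prior count and is no measure of size. Each is given with the limit from a floor of 3 counts over the empty group, for counting error only. With 0 counts in untreated DE2 the difference was for Csf3r (fitted -10.90) at most -7.92, Gm40460 (fitted -9.81) at most -6.82, Gpr143 (fitted -6.11) at most -3.10, Krtap24-1 (fitted -11.01) at most -7.99, Krtap5-3 (fitted -10.02) at most -7.11, Tmprss11g (fitted -10.23) at most -7.24, Tyr (fitted -9.46) at most -6.45 and Uox (fitted -9.84) at most -6.82. With 0 in irradiated DE2 it was for 1700029J07Rik (fitted 7.004) at least 3.84, Chst3 (fitted 9.10) at least 6.01 and Mrgprb2 (fitted 5.83) at least 2.64. With 0 in untreated Foxp3-WT it was for Fgf9 (fitted 9.76) at least 6.96. The Csf3r limit rests on a single library: its untreated Foxp3-WT counts were 38, 0 and 0. Without that library, replicate 1, its fitted Foxp3-WT change was 5.26. With 1 to 3 counts in a group, the ratio of irradiated to untreated in that genotype, with its exact 95% interval, was for 2010009K17Rik (fitted 5.85, 2 in irradiated DE2) 0.0254 (0.00302 to 0.0945), Fmod (fitted -6.26, 1 in irradiated Foxp3-WT) 0.0235 (0.000583 to 0.137) and for Vwa7 (fitted 6.68, 1 in irradiated DE2) 0.0105 (0.000264 to 0.0601).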

How the results depend on the processing

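For UVB in Foxp3-WT skin, where 3 genes were called, the count was 1 with library totals alone, 141 with no filter on low counts (102 higher, 39 lower), 22 by DESeq2 (19 higher, 3 lower), 0 against a 2-fold change, 0 with the 6 Foxp3-WT libraries alone and 6 with a muscle term. It ranged from 0 to 8 as each library was left out. Without the untreated DE2 libraries, an alternative chosen after seeing the data, it was 12. A hair term and limma voom gave 3, with 1 and 2 of them shared. In DE2, where 4202 were called, the count was 1162 against a 2-fold change, 825 with a muscle term and 1 with a hair term, and 2979 to 4622 with a library left out. For the difference between genotypes, 1585 became 2438 with no filter, 419 against a 2-fold change, 329 with a muscle term and 1 with a hair term, and ran from 878 to 2585 with a library left out. With library totals alone the split was 368 above and 1220 below for the difference and 2712 higher and 1368 lower for DE2, with median log2 changes over all genes of -0.381 and 0.260. The hair term was the mean log2 CPM of inner root sheath genes, whose share of counts set the untreated DE2 libraries far apart from the other 9. The muscle term was made the same way, and muscle shares were closer, at 8.24% or more against up to 7.93%. Losses under either term therefore do not separate tissue makeup from that group. Otherwise the cause was not tested.

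Some genes that did not pass the test in Foxp3-WT skin reversed sign. With library totals alone Trp53 was at -0.059 and Tmprss11g at -0.10. With the muscle term Trp53 was at -0.027, Dct at -0.043 and Tmprss11g at -0.089. By limma voom Tnf was at -1.09, Ptgs2 at -0.45, Dct at -0.000458, Csf3r at 0.64, Vwa7 at -0.21, 1700029J07Rik at 0.40 and Chst3 at -0.39. With the hair term Tnf was at -0.96, Col1a1 at -0.067, Mmp13 at 0.28, Csf3r at 2.74, Krtap5-3 at 0.26 and 1700029J07Rik at 0.11. As each Foxp3-WT library was left out, the log2 changes ran for Prc1 from -0.036 to 0.67, Trp53 from -0.11 to 0.18, Mdm2 from -0.29 to 0.15, Krt14 from -0.18 to 0.14, Lor from -0.43 to 0.090, Tnf from -3.10 to 0.68, Ptgs2 from -2.84 to 1.45, Il33 from -0.72 to 0.078, Dct from -0.21 to 0.37, Lef1 from -0.52 to 0.23, Mki67 from -0.58 to 0.14, Col1a1 from -0.022 to 0.26, Csf3r from -3.14 to 5.26, Tmprss11g from -0.91 to 1.32, Krtap5-3 from -0.81 to 0.51, 2010009K17Rik from -0.30 to 1.06, 1700029J07Rik from -0.62 to 0.82 and for Chst3 from -1.83 to 1.56.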
